A study of Homo sapiens and Mus musculus with 24 samples.

Results

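Albumin (Alb), alpha-fetoprotein (Afp), transthyretin (Ttr) and the apolipoproteins Apoa1, Apoc3, Apoa4 and Apoa5 are 7 genes of hepatocytes, and they served here as non-erythroid loci in fetal liver. Their peaks were taken by position: every peak of the 12 fetal-liver lists that overlaps 1 of 3 windows of the mouse build mm10. The windows were chr5:90440000-90530000 for Alb and Afp (90 kb), chr18:20655000-20685000 for Ttr (30 kb) and chr9:46220000-46280000 for the 4 apolipoproteins (60 kb). They hold 83 of the 564622 peaks in the 12 lists, in 180 kb of chromatin. The question put to them is whether hepatocyte chromatin is acetylated and bound by the remodeller BRG1, with or without hemogen.

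The study used chromatin immunoprecipitation with sequencing (ChIP-seq) on livers of mouse embryos at day 14.5. The groups were BRG1 precipitates from hemogen knockout (KO) livers, and BRG1, hemogen and H3K27ac (histone H3 acetylated at lysine 27) precipitates from livers labelled WT, with 2 libraries each. Hemogen was precipitated through an HA tag; how the tag came into livers labelled WT is not given in the labels, and neither an HA precipitate of untagged liver nor H3K27ac in KO liver was analysed here. Separate animals are not named for the 2 libraries of a group, so the spread between libraries may be technical. Each library had a peak list and each group a group list. Whole livers were used, so fewer cells of a type and less signal per cell cannot be told apart in any value below.

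Red cells are made in the liver at this stage of development, and hepatoblasts, the precursors of hepatocytes, are a minority there among blood-forming cells. Alb and Afp are neighbours, switched on by enhancers upstream of each gene, and the apolipoprotein genes form a cluster with shared liver and gut enhancers. H3K27ac marks active promoters and enhancers, BRG1 is the motor subunit of the BAF family of chromatin remodellers, and hemogen is a nuclear factor found mainly in haematopoietic cells.

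For KO BRG1, 3205 peaks were listed in library 1, 5592 in library 2 and 13938 in the group list. The library lists of the other groups had 21165 to 69882 peaks, and their group lists 37655 (WT BRG1), 78360 (hemogen) and 167030 peaks (H3K27ac). Relative depth of each immunoprecipitate, solved from the fold and p-value of its peaks, was scaled to that of WT BRG1 library 1. It was 0.406 and 0.342 in the KO BRG1 libraries, against 1.00 and 1.04 in the WT BRG1 libraries. In the hemogen libraries it was 0.720 and 1.02, and in the H3K27ac libraries 0.791 and 0.843. A second estimate used the scale on which peak heights were called. By it, the KO BRG1 libraries were at 0.259 and 0.262, against 1 and 0.861 in the WT BRG1 libraries. The hemogen libraries were at 0.817 and 0.861 on this calling scale, and the BRG1 group lists at 0.517 (KO) and 1.85 (WT). Fold enrichment and p-values below are the authors' own, and a percentile is the rank of a peak's −log10 p within its own list.

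The windows differed from each other in what they held. The Alb and Afp window had hemogen peaks and none of H3K27ac or BRG1. The Ttr window had hemogen peaks and 1 H3K27ac peak, and the apolipoprotein window had hemogen, H3K27ac and 1 site of BRG1. The KO BRG1 lists had 0 peaks in all 3 windows. The map of peaks by window shows these patterns, and no annotation of mm10 was used here, so no peak is placed at a promoter, an enhancer or an exon.

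**Figure D1:**
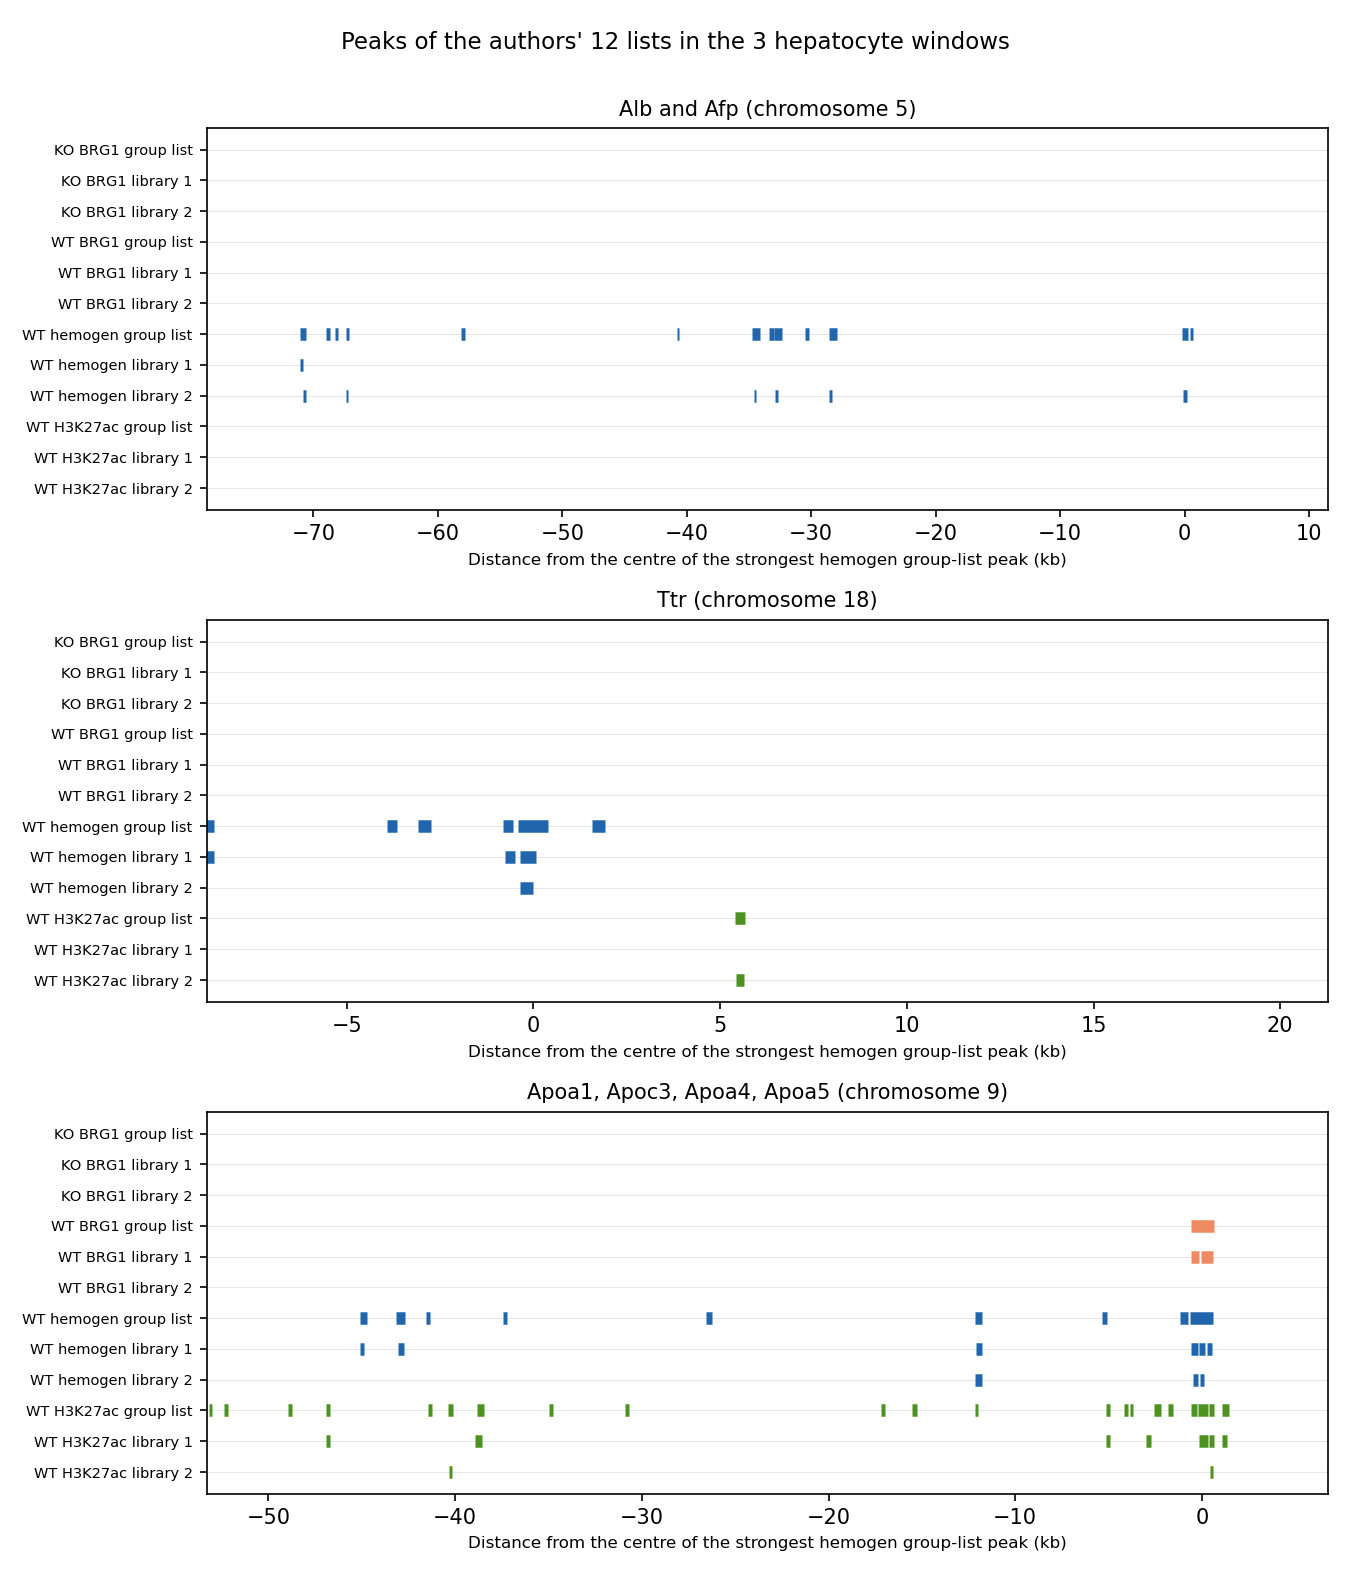
Peaks of the 12 lists in the 3 hepatocyte windows, with 1 row per list and the x axis giving kb from the centre of the window's strongest hemogen group-list peak. Blue marks hemogen, green H3K27ac and orange WT BRG1; the 3 KO BRG1 rows are empty, and the Alb and Afp window shows 13 hemogen group-list peaks above empty H3K27ac rows.

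Alb encodes the main plasma protein of the adult and Afp its counterpart in the fetus. Neither KO BRG1 nor WT BRG1 had a peak in their window in any list. H3K27ac had 0 peaks in library 1, 0 in library 2 and 0 in the group list. The lack of a called peak does not show that the mark is absent. A window of this length with an H3K27ac peak is common, but so is one without. Of 29201 consecutive 90 kb tiles of the 19 autosomes and X, 43.1% held at least 1 peak of the H3K27ac group list. For BRG1 the shares were 18.1% for the KO group list and 25.8% for the WT group list, and for hemogen 41.2%. The H3K27ac peaks nearest to the window lay 72.9 kb before its start and 60.8 kb after its end, a gap of 224 kb. Of 167010 gaps between neighbouring H3K27ac group-list peaks, 1364 (0.817%) were at least that long, but those gaps together spanned 55.8% of the chromosomes. KO BRG1 peaks lay no nearer than 73.7 kb before and 1321 kb after the window, against 25.1 kb before and 401 kb after it for WT BRG1.

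Hemogen had peaks across this window without a called H3K27ac peak. There was 1 peak in library 1, there were 6 in library 2, and the group list had 13. The group-list peaks fell into 3 clusters of peaks less than 5 kb apart and 2 single peaks. The first cluster of 4 peaks spanned 3.90 kb at chr5:90447474-90451376, the second of 5 peaks spanned 6.86 kb at chr5:90483729-90490585, and the third of 2 peaks spanned 0.878 kb at chr5:90518280-90519157. In each cluster the strongest peaks stood in the upper part of the hemogen group list. In the first, the peak at chr5:90449574-90449817 had a fold of 4.34 (percentile 72.9), although neither library list had a peak there. In the second, the peak at chr5:90485562-90486159 also had a fold of 4.34 (percentile 72.9), and library 2 called it with a fold of 5.54 (percentile 70.6). In the third, the peak at chr5:90518280-90518764 had the highest group-list fold of the window, 4.66 (percentile 75.5), and library 2 called it with a fold of 4.39.

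The support from single libraries was thin and uneven at Alb and Afp. Of the 13 group-list peaks, 6 (46.2%) overlapped a peak of library 2 and 1 (7.69%) a peak of library 1; over the whole group list the shares were 39.2% and 51.1%. The library 1 peak, at chr5:90447481-90447690 with a fold of 3.84 (percentile 48.8), and the nearest library 2 peak, at chr5:90447696-90447890 with a fold of 3.25 (percentile 6.78), both lie inside a single group-list peak without overlapping each other. No hemogen region of the Alb and Afp window was therefore found in both libraries, and 7 of the 13 peaks were in neither library list. Library 1 was the less deeply sequenced hemogen library (0.720 against 1.02, or 0.817 against 0.861 on the calling scale). Its list was nevertheless the longer one, with 53055 against 42866 peaks. The part of depth in the uneven support was not tested.

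Few tiles without a called H3K27ac peak held as many hemogen peaks as the Alb and Afp window. Among all 29201 tiles of 90 kb, 6.28% held 13 or more hemogen group-list peaks. Of the 16448 tiles with no H3K27ac peak in any list, 1622 (9.86%) held any hemogen group-list peak, and 9 (0.0547%) held 13 or more. The tiles were laid along each chromosome without regard to the window: of the 2 that overlap it, 1 is among the 16448, with 11 hemogen group-list peaks. The share depended on the list. Of the 13 group-list peaks, 6 overlapped library 2 and 7 were in neither library list. The 6 peaks of hemogen library 2 were matched in 9 of the 16448 tiles (0.0547%), while the single peak of library 1 was matched in 921 (5.6%). With peaks of a −log10 q of at least 5 the window kept 7 hemogen peaks, and 8 tiles (0.0486%) had as many. The histogram of hemogen peaks per tile without an H3K27ac peak shows where the window lies. No test was made of it, because the window was chosen with earlier results of these data known.

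**Figure D2:**
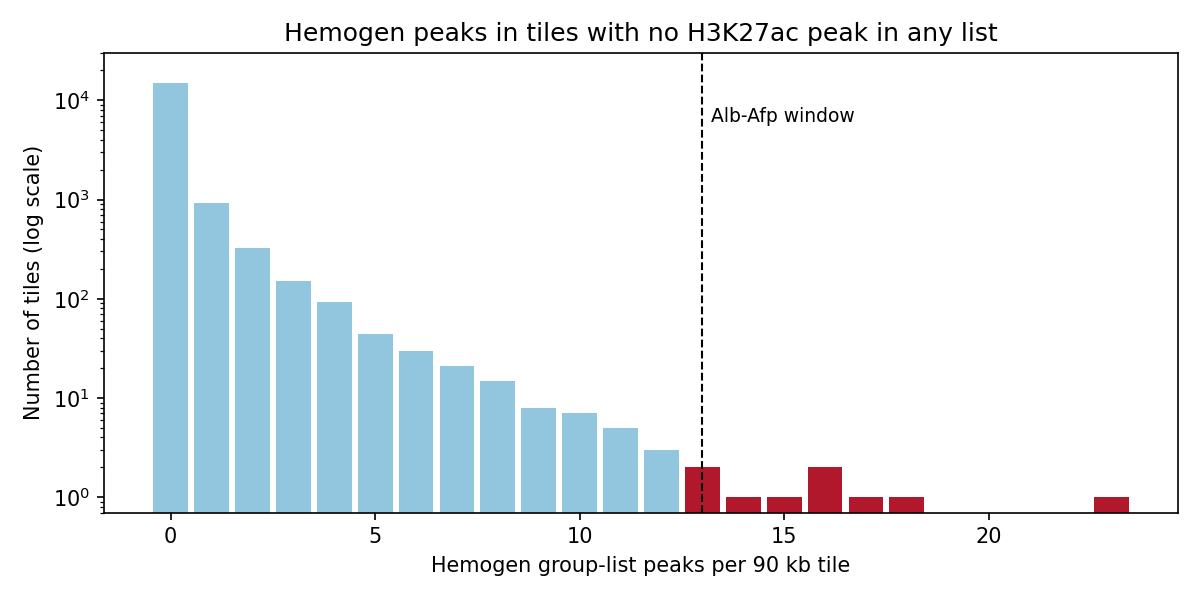
Number of 90 kb tiles without an H3K27ac peak in any list (y axis, log scale) by the number of hemogen group-list peaks each holds (x axis). The dashed line marks the 13 peaks of the Alb and Afp window, and the 9 tiles with 13 or more are red.

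Ttr encodes the carrier of thyroxine and of retinol-binding protein in plasma. Its window had 0 KO BRG1 peaks and 0 WT BRG1 peaks in any list. Over 87624 tiles of 30 kb, 8.18% held a peak of the KO BRG1 group list and 13.5% a peak of the WT BRG1 group list. The nearest KO BRG1 group-list peaks lay 5309 kb before and 152 kb after the window, and the nearest WT BRG1 ones 438 kb before and 209 kb after.

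H3K27ac and hemogen were both called in the Ttr window, but at different places. The H3K27ac group list had 1 peak, at chr18:20669121-20669407, with a fold of 4.36 (percentile 75.5). Library 2 called it with a fold of 4.52 (percentile 48.8), and library 1 had no peak in the window. Of the 30 kb tiles, 31.6% held at least 1 H3K27ac group-list peak and 26.1% a hemogen one.

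Hemogen had 3 peaks in library 1, 1 in library 2 and 6 in the group list of the Ttr window. At least 6 were found in 5.02% of the 30 kb tiles. The strongest, at chr18:20663332-20664137, had a fold of 5.20 (percentile 81.2), the highest fold of any hemogen group-list peak in the 3 windows. Both libraries called it, with folds of 3.94 in library 1 and 5.30 in library 2, which made chr18:20663363-20663814 the only region of the Ttr window found in both hemogen libraries. The other 5 group-list peaks had folds of 2.12 to 3.60, and the one at chr18:20654776-20655176 crosses the edge of the window. All 6 lay between 3.46 and 13.9 kb from the H3K27ac peak.

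Apoa1 encodes the main protein of high-density lipoprotein, Apoc3 an inhibitor of triglyceride clearance, Apoa4 a protein of chylomicrons, and Apoa5 an activator of triglyceride clearance. Their 60 kb window was the most acetylated of the 3. H3K27ac had 7 peaks in library 1, 2 in library 2 and 21 in the group list, spread along the window and covering 8.93% of it. Of 43807 tiles of 60 kb, 39% held at least 1 H3K27ac group-list peak and 5.88% held 21 or more; a KO BRG1 group-list peak was in 13.8% and a WT BRG1 one in 20.6%. Most of the 21 were of middling strength, with folds of 2.69 to 4.53 and a median percentile of 43.5.

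The libraries shared little of this acetylation. Library 1 supported 6 of the 21 group-list peaks (28.6%) and library 2 supported 2 (9.52%), where the whole H3K27ac group list had shares of 35.9% and 23.3%. The sole region found in both libraries was chr9:46273658-46273903, with folds of 4.34 in library 1 (percentile 69.2) and 3.80 in library 2 (percentile 59.7). Its group-list peak, at chr9:46273664-46273906, was also the strongest H3K27ac group-list peak of the windows (fold 4.53, percentile 94.5). The next, at chr9:46268140-46268366, had a fold of 4.46 in the group list (percentile 89.5) and of 5.17 in library 1 (percentile 84.1), and was not called in library 2.

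BRG1 in the hepatocyte windows came down to this same place. The WT BRG1 group list had 1 peak, at chr9:46272683-46273895, which is 1213 bp wide with a fold of 2.71 and a −log10 p of 6.70 (percentile 34.6). WT BRG1 library 1 had 2 peaks that overlap it, with folds of 2.95 (percentile 27.8) and 4.25 (percentile 54.9), and WT BRG1 library 2 had none. Of all WT BRG1 group-list peaks, 58.3% overlapped library 1 and 42.6% library 2. The KO BRG1 libraries and the KO group list had no peak there. No WT BRG1 region was thus found in both libraries, and the share of such regions called in the KO has no value in these windows. Over the whole genome, 55.3% of the 13213 WT BRG1 regions were called in a KO list.

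The BRG1 site coincided with hemogen. The hemogen group-list peak at chr9:46272660-46273886 had a fold of 3.79 and the highest percentile of any hemogen peak in the windows, 86.0. It shared 1204 bp with the WT BRG1 peak, which is 99.3% of the BRG1 peak and 97.4% of the span of both, and the summits were 59 bp apart. Such overlap was common, since 93.2% of all WT BRG1 group-list peaks overlapped hemogen and 70.5% overlapped H3K27ac group-list peaks. Both hemogen libraries called regions inside it, at chr9:46272698-46273086 and chr9:46273142-46273449. Together, 3 H3K27ac group-list peaks covered 88.9% of the BRG1 peak. In mouse the 4 genes follow each other with rising coordinate in the order Apoa1, Apoc3, Apoa4, Apoa5, so the site lies towards the Apoa5 end. In the human annotation (GRCh38.p14) the next gene on that side of APOA5 is ZPR1, a zinc finger gene that is not specific to liver. Which gene the site belongs to was not tested.

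Hemogen in the apolipoprotein window had 6 peaks in library 1, 3 in library 2 and 9 in the group list. Of the 60 kb tiles, 35.4% held a hemogen group-list peak and 6.62% held 9 or more. Away from the BRG1 site, the strongest lay at chr9:46261131-46261483, with a fold of 5.12 (percentile 83.0). Both libraries called it, with folds of 4.90 in library 1 and 4.24 in library 2, and the region was chr9:46261141-46261483. It overlapped a weak H3K27ac group-list peak (percentile 24.0) that neither H3K27ac library called. The other 7 had folds of 2.59 to 3.75.

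**Figure D3:**
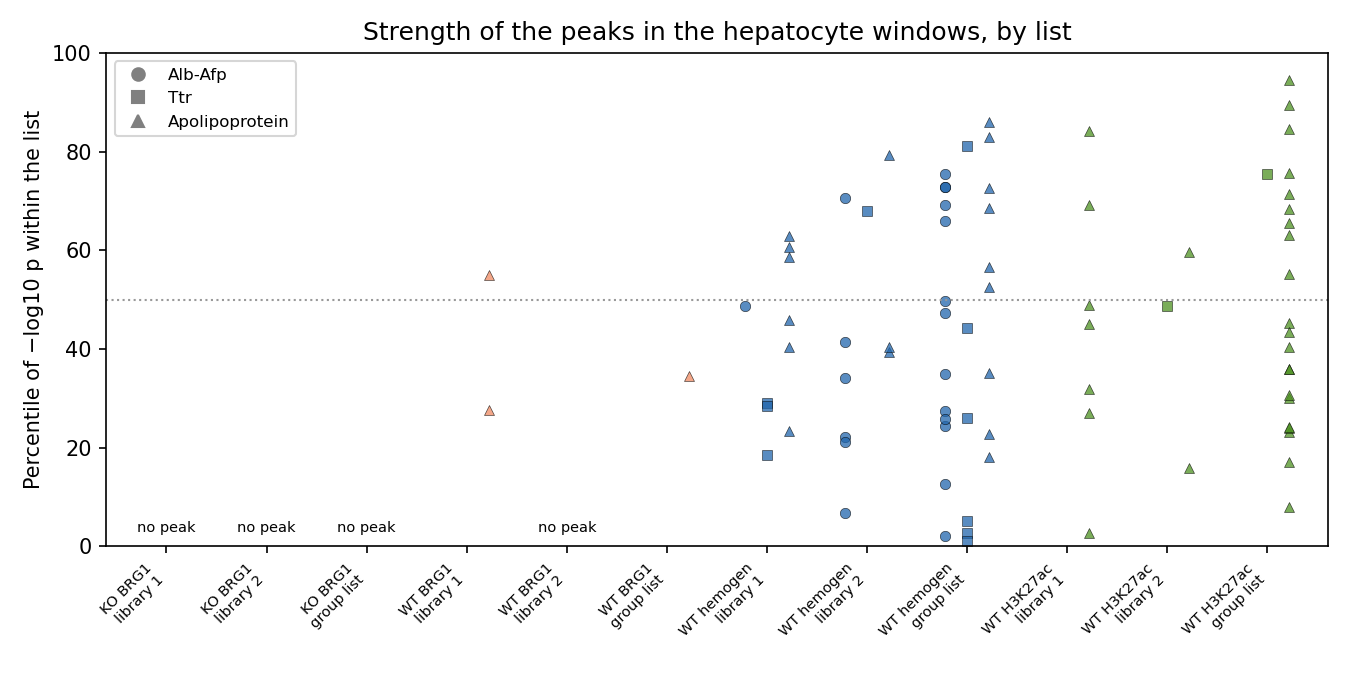
Strength of each peak in the hepatocyte windows, as the percentile of −log10 p within its own list (y axis), for the 12 lists (x axis); circles are Alb and Afp, squares Ttr and triangles the apolipoproteins. Hemogen group-list peaks run from percentile 1.17 to 86.0 and H3K27ac group-list peaks from 8.08 to 94.5, WT BRG1 has 3 peaks, and the KO BRG1 lists have none.

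The comparison of genotypes rested on few peaks. KO BRG1 libraries had 0 and 0 peaks in the hepatocyte windows, and WT BRG1 libraries had 2 and 0, so the groups overlapped. The means were 0 ± 0 peaks in KO and 1 ± 1.41 in WT (SD, n = 2 libraries each; exact two-sided permutation test, p = 1; 2 against 2 libraries cannot go below 0.33). Only WT BRG1 library 1 had peaks, so every split of the libraries gives the same absolute difference. The p-value was thus fixed and says nothing about genotype. Per 10000 peaks of the list the KO libraries had 0 and 0, where counts of 0 allow up to 9.36 and 5.36, and the WT libraries 0.760 and 0, where the count of 0 allows up to 1.42. These limits cover counting error only. The difference rests on WT BRG1 library 1, without which it is 0. The KO immunoprecipitates were also the shallower ones (0.406 and 0.342, against 1.00 and 1.04 in WT), and genotype and depth cannot be told apart here. With so few peaks in WT, these lists cannot show whether BRG1 in these windows differs in the KO.

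At the strength of the BRG1 site in the apolipoprotein window, few WT BRG1 group-list peaks were called in the KO anywhere. Of all 37655 WT BRG1 group-list peaks, 25.6% overlapped a peak of any KO list. In the decile of −log10 p that holds the peak of this site, the share was 345 of 3831 (9.01%). For WT library 1 peaks the share was 35% in all, and 15.4% and 29.5% in the deciles of the 2 peaks at this site. The WT replicate called more of them: 58.4% of library 1 peaks were called in WT BRG1 library 2, and 33.3% and 56.4% in those deciles. That library had 21165 peaks at a relative depth of 1.04. The KO libraries had 3205 and 5592 peaks at 0.406 and 0.342, so genotype, depth and list length cannot be told apart in these shares. Of the KO group-list peaks, 5.05% had a fold at or below that of the WT group-list peak at this site (2.71). A −log10 p at or below its 6.70 was more common, at 38.7%. For the stronger WT library 1 peak, with a fold of 4.25, 41.2% of KO library 1 peaks and 38.3% of KO library 2 peaks had a fold as low or lower. In the KO group list the share was 62.6%. The WT and KO lists were called at unlike depth, so fold and −log10 p are not on 1 scale across them. The shares by fold and −log10 p thus do not say whether the site could be called in the KO.

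BRG1 was called in the KO just outside the apolipoprotein window. The nearest KO BRG1 group-list peaks lay 3.77 kb before and 3.07 kb after it, and the nearest WT BRG1 ones 2.82 kb before and 2.72 kb after. With each window widened by 20 kb on both sides, KO BRG1 libraries had 0 and 1 peaks and WT BRG1 libraries 5 and 3 (exact two-sided permutation test, p = 0.33). The 2 WT BRG1 regions found in both libraries of the widened windows were both called in the KO, as were 55.3% of all such regions.

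Of the 28 hemogen group-list peaks, 4 (14.3%) overlapped an H3K27ac group-list peak, where 40.7% of all hemogen group-list peaks did. For the 13 at Alb and Afp the absence of overlap only restates that the window has no H3K27ac peak. Over the whole hemogen list the share grew with strength, from 26.2% in the lowest decile to 88.7% in the highest. The overlaps were 0 of 6 at Ttr, beside 34.1% at like strength, and 4 of 9 (44.4%) at the apolipoproteins, beside 40.4% at like strength. Only 1 H3K27ac group-list peak lies in the Ttr window. The values over all 3 windows depended on the list. In hemogen library 1 alone, 4 of 10 peaks (40%) overlapped the H3K27ac group list, where 50.7% of that library's list did, and in hemogen library 2 it was 3 of 10 (30%, against 57.4% over the list). Of the 28 group-list peaks, 2 (7.14%, against 25.9% over the list) overlapped H3K27ac library 1, and 1 (3.57%, against 20.5%) overlapped H3K27ac library 2. Peaks of a locus share their chromatin and are not replicates, so no test was made.

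BRG1 was called on 1 of these hemogen peaks, and the 13 at Alb and Afp and the 6 at Ttr lie in windows without any BRG1 peak. Of the 28 hemogen group-list peaks, 0 overlapped a KO BRG1 group-list peak and 1 (3.57%) a WT BRG1 group-list peak, where all hemogen group-list peaks had shares of 11.4% and 29.2%. For the peaks at Alb and Afp and at Ttr the absence of overlap only restates that their windows have no BRG1 peak. In the apolipoprotein window 1 of 9 (11.1%) overlapped WT BRG1, beside 29.3% at like strength. Of the 4 hemogen regions found in both libraries, 3 overlapped an H3K27ac group-list peak (68.5% of 25631 in the genome) and 2 the WT BRG1 group-list peak (71.9% in the genome), all of them in the apolipoprotein window. The 28 peaks were of ordinary strength, with a median fold of 3.32 against 3.33 over the list and a median percentile of 45.8. Either hemogen library supported 13 of them (46.4%, against 59.7% over the list) and both supported 4 (14.3%, against 30.6%).

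Counted over H3K27ac peaks, the shares describe the apolipoprotein window, which holds 21 of the 22 group-list peaks; Ttr holds 1, and Alb and Afp none. Of the 22, 6 (27.3%) overlapped hemogen and 3 (13.6%) WT BRG1, where the whole list had 26.3% and 17.2%. All 6 are in the apolipoprotein window, and the 3 all lie on its single WT BRG1 group-list peak. None overlapped KO BRG1, which 6.24% of the list did. The 1 H3K27ac region found in both libraries overlapped no hemogen region, where 49% of the 25305 H3K27ac regions did, and no WT BRG1 region, where 37.2% did; the windows hold no WT BRG1 region. It did overlap hemogen library 1 and WT BRG1 library 1 peaks. H3K27ac regions covered 0.137% of the 3 windows. The H3K27ac group list covered 0% at Alb and Afp, 0.957% at Ttr and 8.93% at the apolipoproteins (3.14% in all), against 2.24% of the genome.

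Set against the globin loci, the hepatocyte windows held fewer peaks of all 4 kinds per 100 kb. In the 3 hepatocyte windows together KO BRG1 had 0 group-list peaks per 100 kb, WT BRG1 0.556, hemogen 15.6 and H3K27ac 12.2. In the beta-globin window of 90 kb KO BRG1 had 3.33, WT BRG1 43.3, hemogen 27.8 and H3K27ac 45.6. In the alpha-globin window of 160 kb KO BRG1 had 8.75, WT BRG1 31.9, hemogen 30 and H3K27ac 77.5. In the genome KO BRG1 had 0.530, WT BRG1 1.43, hemogen 2.98 and H3K27ac 6.35. By the group list, hemogen at the hepatocyte genes was thus denser than in the genome in each of the 3 windows and less dense than at either globin locus. By library 1 the Alb and Afp window had 1.11 hemogen peaks per 100 kb, below the 2.02 of the genome, and by library 2 it had 6.67, above the 1.63 of the genome. By the group list, WT BRG1 was at 0 in 2 windows and at 1.67 in the apolipoprotein window. Hemogen peaks of the hepatocyte windows had a median width of 351 bp and covered 6.21% of the windows. The values were 697 bp and 39.2% at beta-globin and 533 bp and 25.7% at alpha-globin.

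The shares of hemogen peaks with H3K27ac and with WT BRG1 were larger at the globin loci, though no test was made of the difference. H3K27ac group-list peaks lay under 4 of 28 hemogen group-list peaks (14.3%) in the hepatocyte windows, against 13 of 25 (52%) at beta-globin and 41 of 48 (85.4%) at alpha-globin. WT BRG1 group-list peaks lay under 1 of 28 (3.57%), against 15 of 25 (60%) and 31 of 48 (64.6%). For the 13 peaks at Alb and Afp the absence of overlap only restates that their window has neither mark. In the apolipoprotein window alone the shares were 4 of 9 (44.4%) and 1 of 9 (11.1%), and at Ttr both were 0 of 6. The Ttr window has no BRG1 peak in any list and 1 H3K27ac group-list peak, so its 0 of 6 for BRG1 was likewise fixed. These shares were not matched for strength. Hemogen peaks had a median percentile of 45.8 in the hepatocyte windows, 80.0 at beta-globin and 55.0 at alpha-globin. WT BRG1 group-list peaks were called in a KO list in 0 of 1 case in the hepatocyte windows. The share was 2 of 39 (5.13%) at beta-globin and 10 of 51 (19.6%) at alpha-globin, beside 25.6% over the whole list. A single peak in the hepatocyte windows gives no comparison. Both globin windows and the Ttr and apolipoprotein windows held H3K27ac group-list peaks, and the Alb and Afp window held none. The Ttr peak was called in library 2 only. At least 1 such peak was in 31.6% of 30 kb tiles, 39% of 60 kb tiles and 43.1% of 90 kb tiles. Holding a peak is therefore no check of the tissue. Other erythroid and hepatocyte markers were not placed, for want of an annotation of the build.

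**Figure D4:**
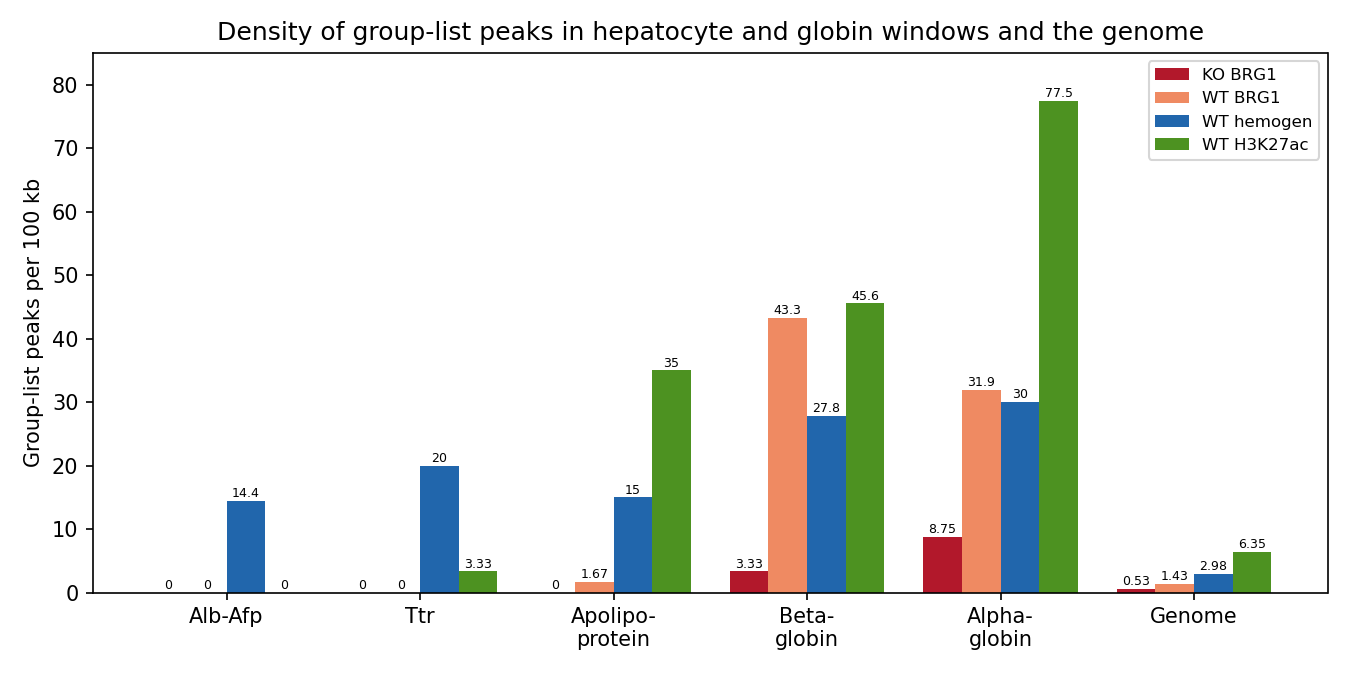
Group-list peaks per 100 kb (y axis) in the 3 hepatocyte windows, the 2 globin windows and the genome (x axis), with bars for KO BRG1, WT BRG1, hemogen and H3K27ac. Hemogen bars of the hepatocyte windows run from 14.4 to 20, between the genome (2.98) and the globin windows (27.8 and 30), and KO BRG1 is at 0 in all 3.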

How the data were processed

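Sample titles gave the groups and replicate numbers of the 24 samples, and the 12 human K562 samples and 4 liver inputs were not used here. Per the submitters' processing notes, the tools were MACS2 2.2.7.1, Picard 2.21.4, Bowtie2 2.3.5 and SAMtools 1.9, with no role given. Controls and read filters are not stated there. The build mm10 was inferred from contig names. The authors deposited peak lists without headers. For every peak they give its fold over local background, a ratio, together with the authors' −log10 p-value, −log10 q-value and summit offset, which served for summit distances. The smallest −log10 q of any list lay between 1.30 and 1.37. The hemogen peak names carry numbers other than the labels' replicates, and the sample of each list was taken from its file record.

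Peaks on the 19 autosomes and X were kept. Peaks sharing 1 bp were counted as overlapping, and regions are merged peaks of both libraries of a group with at least 1 of each. Tiles are consecutive and as long as the window. Percentiles were cut into 10 deciles for comparison at like strength. Relative depth was solved from fold and p-value as a Poisson tail with 1 added to height and background; this is an assumption about the caller. Counts per library were tested by exact permutation. Alternatives were a −log10 q of at least 5, an overlap of 50% of the shorter interval, group lists, windows widened by 20 kb, BRG1 lists trimmed to 3205 peaks, a call in both KO libraries, each library left out, and the replicate block. All 7 genes, every BRG1 peak, every hemogen region and the 2 strongest H3K27ac regions of each window were to be named. Genes, windows and lists were chosen with earlier results of these data known. The overlap and depth steps were tested on simulated data. A genome or annotation of the build was not used, so a list of other hepatocyte genes was not counted. Software was SciPy 1.17.1, pandas 2.3.3 and NumPy 2.4.6 under Python 3.11.15, with Matplotlib 3.10.9 for plots.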

Additional observations from a re-analysis of the deposited data

How the results depend on the processing

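Most values rest on 1 or a few peaks. The KO minus WT difference in BRG1 peaks per library was -1; it was -0.5 at a −log10 q of at least 5, -3.5 in widened windows, 0 once all BRG1 lists had equal length, and between -2 and 0 with 1 library left out, being 0 without WT BRG1 library 1. Within replicate numbers (replicate block) the mean difference was also -1; the libraries share only a number. WT BRG1 regions were called in the KO in a share of 0% (0 of 1) with group lists, 100% (2 of 2) in widened windows and 0% (0 of 2) without WT BRG1 library 2. This share had no value with an overlap of 50%, at the stricter q, with trimmed lists, with a call in both KO libraries, or without another BRG1 library. The share of H3K27ac regions with WT BRG1, 0% (0 of 1), was 13.6% (3 of 22) with group lists. With libraries left out it ran from 0% to 100% (1 of 1). The share with hemogen, 0% (0 of 1), was 27.3% (6 of 22) with group lists and likewise ran from 0% to 100% (1 of 1). The upper values came without WT BRG1 library 2 and without hemogen library 2. Coverage by H3K27ac regions, 0.137%, was 3.14% with group lists, and 0.327% to 1.13% without 1 H3K27ac library. The 13 hemogen peaks at Alb and Afp were 7 at the stricter q, 0 as regions found in both libraries, and 1 to 6 from a single library. The share of hemogen peaks with H3K27ac, 14.3%, was 0% (0 of 4) as regions, of which the windows hold 1 for H3K27ac, and 3.57% to 40% without 1 library: 40% from hemogen library 1 alone and 3.57% without H3K27ac library 1. Alternatives for these last 2 results were chosen after seeing the data. The cause of these shifts was not tested.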
